A study of Rattus norvegicus with 5 samples.

Results

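The neurotrophins and neurotrophic cytokines of the young rat hippocampus and their receptors were represented by 7 genes: the ligands Bdnf, Ntf3, Gdnf and Cntf and the receptors Ntrk2, Ntrk3 and Ngfr. All probe sets whose only gene symbol in the platform annotation was one of these names were taken, which gave 17 of the 8740 probe sets that are not controls. Bdnf had 7 probe sets, Ntf3, Ntrk2, Ntrk3 and Ngfr had 2 each, and Gdnf and Cntf had 1 each. The study measured total RNA of rat hippocampus, labelled P5, on 5 single-colour arrays. Of these, 2 were from fetal alcohol exposed rats, 1 from an isocaloric diet group and 2 from a control group, called control diet here. An isocaloric diet is a feeding control for alcohol diets, and the labels do not say which animals were fed it. The labels name no strain, sex or alcohol dose and do not say whether a sample is 1 animal or a pool, so p-values measure only the spread between these samples, which may be technical.

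Neurotrophins are secreted growth factors that keep neurons alive, direct their differentiation and strengthen synapses. Bdnf, brain-derived neurotrophic factor, acts through the receptor tyrosine kinase TrkB, the product of Ntrk2, and Ntf3, neurotrophin-3, through TrkC, the product of Ntrk3. Ngfr encodes p75, a receptor of the tumour necrosis factor receptor family that binds all neurotrophins and their uncleaved precursors. Gdnf, glial cell line-derived neurotrophic factor, signals through the kinase Ret with a GFR-alpha coreceptor, and Cntf, ciliary neurotrophic factor, is a cytokine of the interleukin-6 family that signals through Jak kinases and Stat3. In the developing hippocampus Ntf3 is known for its high level in the dentate gyrus soon after birth, while Bdnf rises as circuits mature and is induced by neuronal activity.

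Several of these genes are transcribed from more than 1 start. Bdnf lies at chr3:116619633-116670212 and Ntf3 at chr4:160601161-160670623 in the RefSeq annotation of the rat build GRCr8. In the RefSeq start windows of that build, which run from 250 bases before to 50 bases after a start, 4 of the 7 genes were matched, with 6 windows for Bdnf, 3 for Ntf3 and 1 each for Gdnf and Cntf. Below are 1 window of each of the 2 ligands whose signal passed the intensity filter, both in the direction of transcription. The Bdnf window is the only 1 of its 6 that holds the motif described next. Both are shown because probe sets of these genes gave unlike differences, and the probe annotation does not say which start a probe set reads. Capitals mark CGTCA or TGACG, the half-site of the cAMP response element, searched on both strands; it stood in 1 of the 6 Bdnf windows, in none of the 3 Ntf3 windows, in the 1 Gdnf window, not in the 1 Cntf window and in 21.2% of all 33469 windows. These matches are a description of the letters and not of binding.
Bdnf, chr3:116637608-116637907, plus strand: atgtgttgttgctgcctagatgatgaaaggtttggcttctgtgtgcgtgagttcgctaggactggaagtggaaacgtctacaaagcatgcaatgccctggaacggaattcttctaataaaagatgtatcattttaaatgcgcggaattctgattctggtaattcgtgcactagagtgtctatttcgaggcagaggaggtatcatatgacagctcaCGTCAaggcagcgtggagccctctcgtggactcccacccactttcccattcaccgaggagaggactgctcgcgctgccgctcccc
Ntf3, chr4:160668858-160669157, minus strand: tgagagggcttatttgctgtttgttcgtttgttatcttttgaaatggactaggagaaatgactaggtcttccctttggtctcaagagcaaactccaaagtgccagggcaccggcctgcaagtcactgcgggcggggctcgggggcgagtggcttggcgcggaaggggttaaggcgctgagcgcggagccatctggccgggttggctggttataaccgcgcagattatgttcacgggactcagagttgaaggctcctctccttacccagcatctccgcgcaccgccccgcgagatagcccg

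The deposited values are intensities on a linear scale, already close to a common level, with array medians from 49.0 to 55.7. They were analysed as log2(intensity + 10.6), and on this scale low signals give too small a difference. The test left out probe sets below the 40th percentile of the mean, equal to an intensity of 33.4. Neuronal markers were present. Over 13 hippocampal neuron genes the summed intensity was 5730 and 6219 in fetal alcohol, 5230 in isocaloric diet and 5845 and 5409 in control diet hippocampus. Gap43 and Nrgn made up most of this sum on each array. Of the 11 tested neuron genes 7 were above and 4 below 0 between fetal alcohol and control diet, with a median log2 difference of 0.08. Neurod1 (109 and 221 against 241 and 251) and Neurod2 (83.8 and 110 against 185 and 150) were lower on both fetal alcohol arrays than on both control diet arrays. Nrgn was higher on both fetal alcohol arrays (2161 and 1720 against 1536 and 1546). Over all tested probe sets 17.7% were lower and 16.8% higher without overlap. Over the 7 choroid plexus markers with a probe set, the summed intensity was 2051 and 884 in fetal alcohol, 7138 in isocaloric diet and 6385 and 6280 in control diet hippocampus. Ttr alone measured 1004 and 69.2 in fetal alcohol, 5391 in isocaloric diet and 5297 and 4886 in control diet hippocampus. Over 9 markers of meninges and connective tissue it was 3433 and 1885 in fetal alcohol, 3011 in isocaloric diet and 3221 and 4591 in control diet hippocampus. In fetal alcohol against control diet 5 of the 6 tested choroid plexus markers and all 9 meningeal markers had a log2 difference below 0, with medians of -1.07 and -0.68, and no marker was at 0 on any array. The part of these cell types in the results below was not tested. In whole tissue, fewer cells of a type and less RNA per cell cannot be told apart.

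A total of 7 probe sets of 4 genes passed the intensity filter: 2 of Bdnf, 2 of Ntf3, 2 of Ngfr and 1 of Ntrk2. The other 10 probe sets, among them all of Ntrk3, Gdnf and Cntf, were too dim to be tested. None of the 7 passed the test between fetal alcohol and control diet (limma with Benjamini-Hochberg adjustment over 5244 probe sets, smallest adjusted p = 0.922), and none had an unadjusted p under 0.05. Over all probe sets 0% passed, and 5.61% had an unadjusted p under 0.05, of which the higher ones made up 1.66% of all and the lower ones 3.95%.

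**Figure D1:**
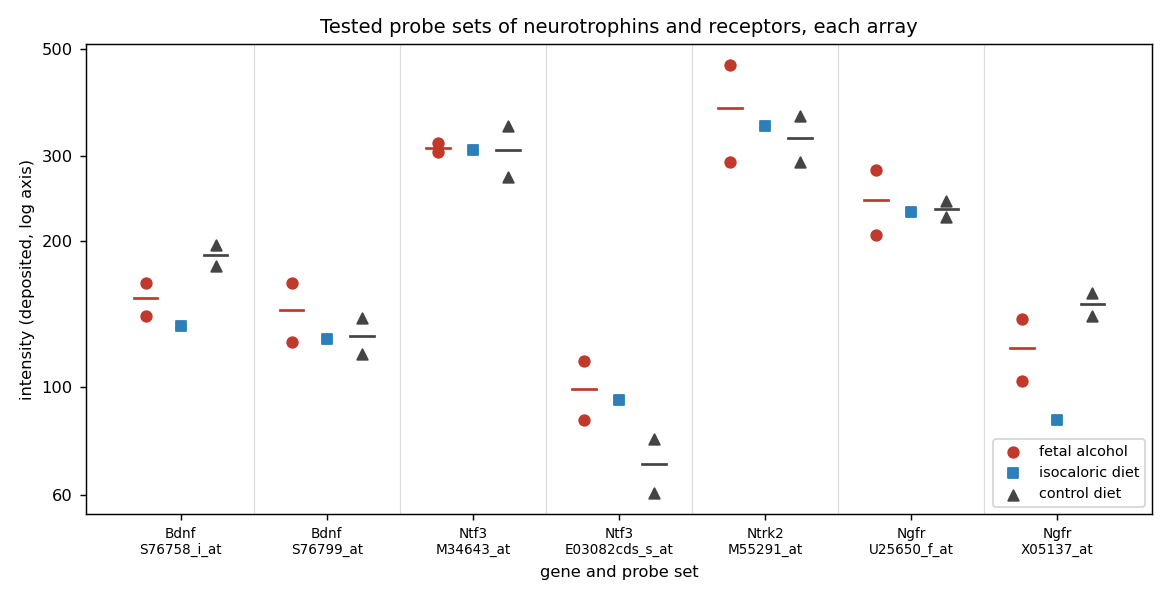
Deposited intensity (log axis) of the 7 tested probe sets of Bdnf, Ntf3, Ntrk2 and Ngfr on each of the 5 arrays. Points are arrays, and short bars are means of the 2 fetal alcohol or 2 control diet arrays. The groups do not overlap for Bdnf S76758_i_at and Ngfr X05137_at, where the fetal alcohol arrays are lower, and for Ntf3 E03082cds_s_at, where they are higher.

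Among the ligands, the 2 tested probe sets of Bdnf gave differences of opposite sign. S76758_i_at measured 164 and 141 in fetal alcohol, 134 in isocaloric diet and 178 and 197 in control diet hippocampus. Both fetal alcohol arrays and the isocaloric array thus lay below both control diet arrays. The mean was 153 ± 16.9 in fetal alcohol and 188 ± 13.3 in control diet hippocampus (SD, n = 2 each), and the log2 difference was -0.28 ± 0.23 (SE, 95% confidence interval -0.81 to 0.25, limma adjusted p = 0.965). It was -0.39 without fetal alcohol array 1 and -0.18 without fetal alcohol array 2. S76799_at measured 164 and 124 in fetal alcohol, 126 in isocaloric diet and 139 and 117 in control diet hippocampus. Here the groups overlapped, and the log2 difference was 0.15 ± 0.25 (-0.41 to 0.72, limma adjusted p = 0.984); without fetal alcohol array 1 it was -0.039. Neither probe set passed, their intervals overlapped, and the difference between the probe sets was not tested.

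The remaining 5 Bdnf probe sets were dim, with no value above 45.9, and did not settle the direction. D10938exon_s_at measured 30.2 and 45.9 in fetal alcohol, 32.4 in isocaloric diet and 28.4 and 22.3 in control diet hippocampus, so the fetal alcohol arrays lay above the control diet arrays. S71196mRNA_s_at measured 13.6 and 32.5 in fetal alcohol, 16.6 in isocaloric diet and 19.4 and 25.5 in control diet hippocampus. The probe set rc_AI030286_s_at measured 15.0 and 26.4 in fetal alcohol, 21.1 in isocaloric diet and 19.0 and 20.3 in control diet hippocampus. In both of these the 2 fetal alcohol arrays lay on opposite sides of the control diet arrays. X67108_at measured 13.7 and 13.6 in fetal alcohol, 9.46 in isocaloric diet and 16.7 and 12.1 in control diet hippocampus. S71201mRNA_at measured 10.3 and 14.0 in fetal alcohol, 10.3 in isocaloric diet and 9.02 and 12.7 in control diet hippocampus. These last values stand close to the offset of 10.6. In a fit without the intensity filter, the 7 Bdnf differences between fetal alcohol and control diet ran from -0.28 to 0.42, with 4 above and 3 below 0. Between isocaloric and control diet 2 were above and 5 below 0, from -0.46 to 0.26.

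**Figure D2:**
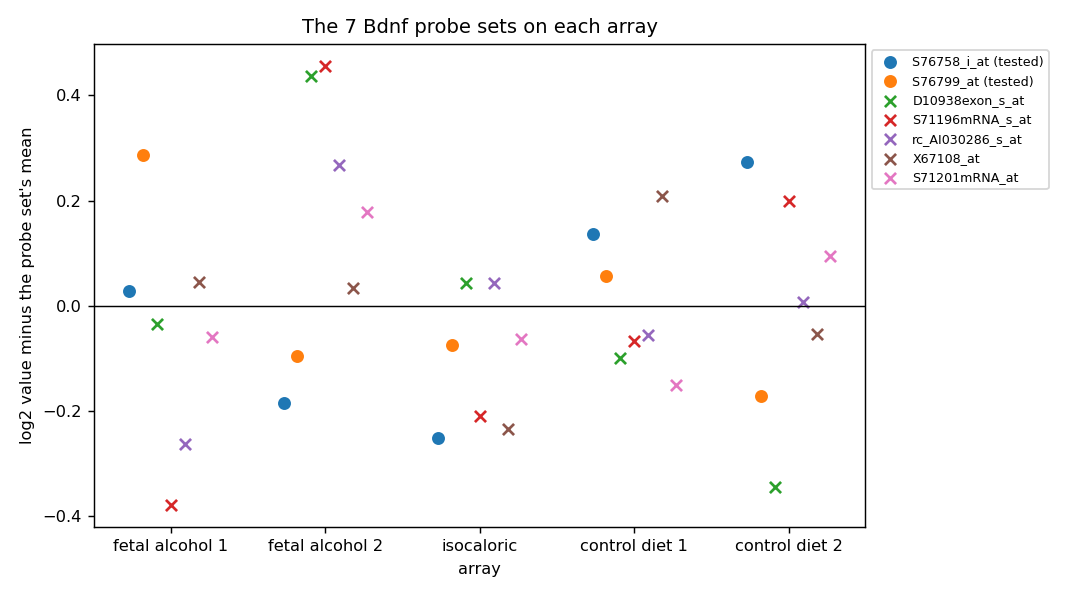
The log2 value of each of the 7 Bdnf probe sets minus its own mean over the 5 arrays. Filled circles are the 2 tested probe sets and crosses the 5 under the intensity filter; on no array do all 7 lie on the same side of 0.

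Ntf3 was the member gene with the largest tested difference between fetal alcohol and control diet, at 1 of its 2 probe sets. E03082cds_s_at measured 113 and 85.7 in fetal alcohol, 94.3 in isocaloric diet and 78.2 and 60.5 in control diet hippocampus. All 3 arrays of the other groups lay above both control diet arrays. The mean was 99.4 ± 19.4 in fetal alcohol and 69.3 ± 12.6 in control diet hippocampus (SD, n = 2 each), a fitted ratio of 1.37. The log2 difference between fetal alcohol and control diet was 0.46 ± 0.25 (-0.11 to 1.03, limma adjusted p = 0.922), and it ran from 0.28 without fetal alcohol array 1 to 0.64 without fetal alcohol array 2. The other probe set, M34643_at, measured 306 and 319 in fetal alcohol, 308 in isocaloric diet and 347 and 272 in control diet hippocampus. The fetal alcohol and isocaloric values stood between the 2 control diet values, and the log2 difference was 0.02 ± 0.24 (-0.53 to 0.57, limma adjusted p = 0.997). It was -0.15 without control diet array 2 and -0.0072 without fetal alcohol array 2.

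Gdnf and Cntf, both made by glial cells among others, gave little signal. Gdnf, at chr2:58621327-58647242, and Cntf, at chr1:219312512-219314535, had 1 probe set each. Gdnf L15305_s_at measured 11.8 and 8.15 in fetal alcohol, 6.49 in isocaloric diet and 6.34 and 11.4 in control diet hippocampus, with 3 of the 5 values under the offset. Cntf rc_AA892559_at measured 15.6 and 18.9 in fetal alcohol, 15.2 in isocaloric diet and 23.4 and 15.3 in control diet hippocampus. In both genes the fetal alcohol and control diet arrays overlapped. The fit without the intensity filter gave log2 differences of 0.09 ± 0.19 for Gdnf (limma adjusted p = 0.986) and -0.09 ± 0.22 for Cntf (limma adjusted p = 0.988).

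Among the receptors, Ntrk2, at chr17:5560558-5875899 in GRCr8, had 1 tested probe set. M55291_at measured 292 and 462 in fetal alcohol, 347 in isocaloric diet and 363 and 292 in control diet hippocampus. The 2 fetal alcohol arrays were the lowest but 1 and the highest of the 5, and the log2 difference between fetal alcohol and control diet was 0.17 ± 0.28 (-0.48 to 0.82, limma adjusted p = 0.985). Without fetal alcohol array 2 it was -0.15. The second Ntrk2 probe set, M55293_at, measured 6.24 and 17.8 in fetal alcohol, 15.7 in isocaloric diet and 13.9 and 4.08 in control diet hippocampus. As with M55291_at, fetal alcohol array 1 was the lower and array 2 the higher, here with values near the offset. Ntrk2 is known to give both full-length TrkB and truncated forms that lack the kinase, and the annotation used here does not say which form a probe set reads.

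Both probe sets of Ntrk3, at chr1:141526192-141913575, were too dim to test. S60953_s_at measured 10.4 and 15.8 in fetal alcohol, 14.1 in isocaloric diet and 26.8 and 16.2 in control diet hippocampus. The nearest fetal alcohol and control diet arrays differed by less than 1 unit of intensity, and in the fit without the intensity filter the log2 difference was -0.43 ± 0.25 (limma adjusted p = 0.94). S62933_i_at measured 0.353 and 0.527 in fetal alcohol, 0.536 in isocaloric diet and 2.97 and 4.64 in control diet hippocampus. All 5 values of S62933_i_at lay under the offset, and its mean log2 value stood at percentile 1.45 of all probe sets. The fit without the filter gave -0.38 ± 0.09 (limma unadjusted p = 0.0061, adjusted p = 0.744). Whether so low a signal follows the transcript was not tested. Neither Ntrk3 probe set passed in that fit, and the sign at S62933_i_at, under the offset, was not taken as backing for that at S60953_s_at.

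**Figure D3:**
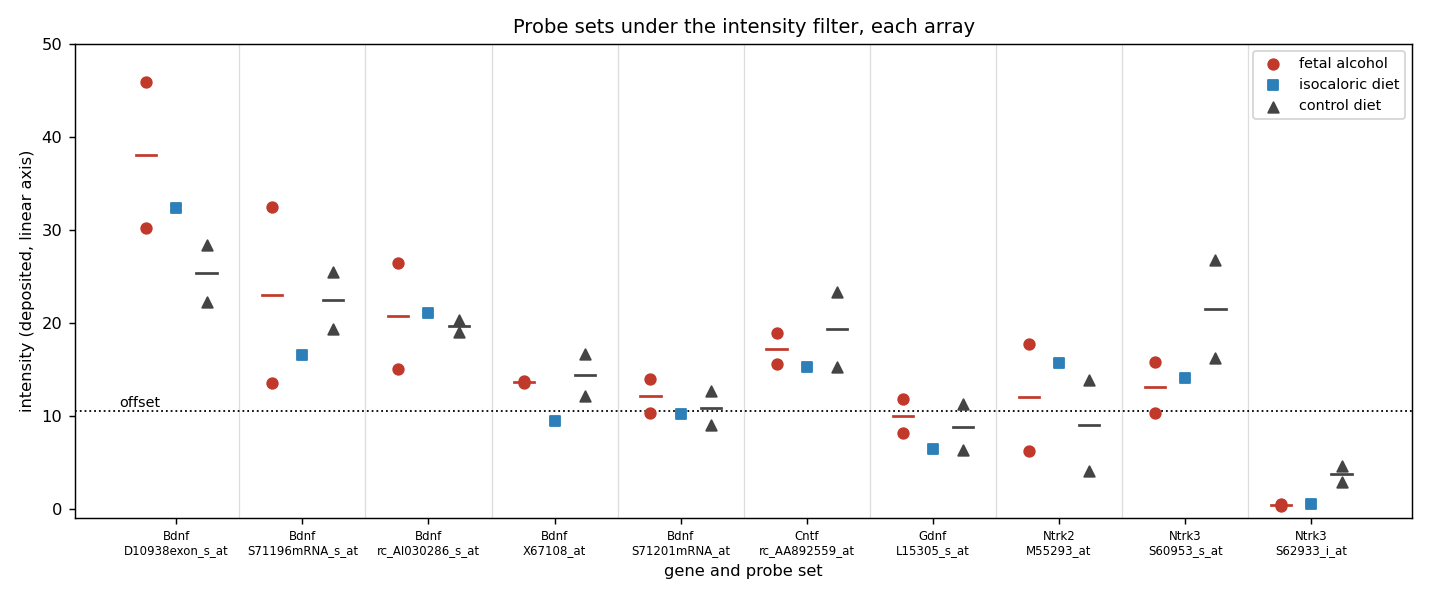
Deposited intensity (linear axis) of the 10 member probe sets under the intensity filter on each of the 5 arrays. Points are arrays, short bars are means of 2 arrays, and the dotted line is the offset of 10.6 added before the log2; all values of Ntrk3 S62933_i_at lie under it.

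Ngfr, at chr10:81012077-81030305, gave differences of unlike size at its 2 probe sets, which were not tested against each other. X05137_at measured 103 and 138 in fetal alcohol, 85.7 in isocaloric diet and 156 and 140 in control diet hippocampus. The isocaloric array was the lowest of the 5, and the higher fetal alcohol array came within 3 units of the lower control diet array. The log2 difference between fetal alcohol and control diet was -0.29 ± 0.24 (-0.85 to 0.27, limma adjusted p = 0.965), and it ran from -0.48 without fetal alcohol array 2 to -0.095 without fetal alcohol array 1. U25650_f_at measured 281 and 206 in fetal alcohol, 230 in isocaloric diet and 224 and 242 in control diet hippocampus. Its fetal alcohol arrays stood above and below both control diet arrays, with a log2 difference of 0.04 ± 0.25 (-0.53 to 0.62, limma adjusted p = 0.997). It was -0.17 without fetal alcohol array 1 and -0.0087 without control diet array 1. Ngfr is also made by Schwann cells, of which 4 markers summed to 283 and 303 in fetal alcohol, 411 in isocaloric diet and 270 and 323 in control diet hippocampus; their part was not tested. By the maker's naming, _f_at marks a probe set whose probes match a family of similar sequences, so its signal may not come from Ngfr alone.

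Taking the 7 tested probe sets as a group, 5 had a log2 difference above 0 and 2 below 0 between fetal alcohol and control diet, with a median of 0.04, beside a median of 0.0049 over all 5244 probe sets. Of the 7, 3 did not overlap between the 2 groups, 1 higher and 2 lower, where 34.5% of all tested probe sets did not overlap, 16.8% higher and 17.7% lower. A count of 3 of 7 is near that background. Differences that these arrays cannot resolve remain large: the 95% confidence intervals of the 7 probe sets reached from -0.85 to 1.03 on the log2 scale.

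**Figure D4:**
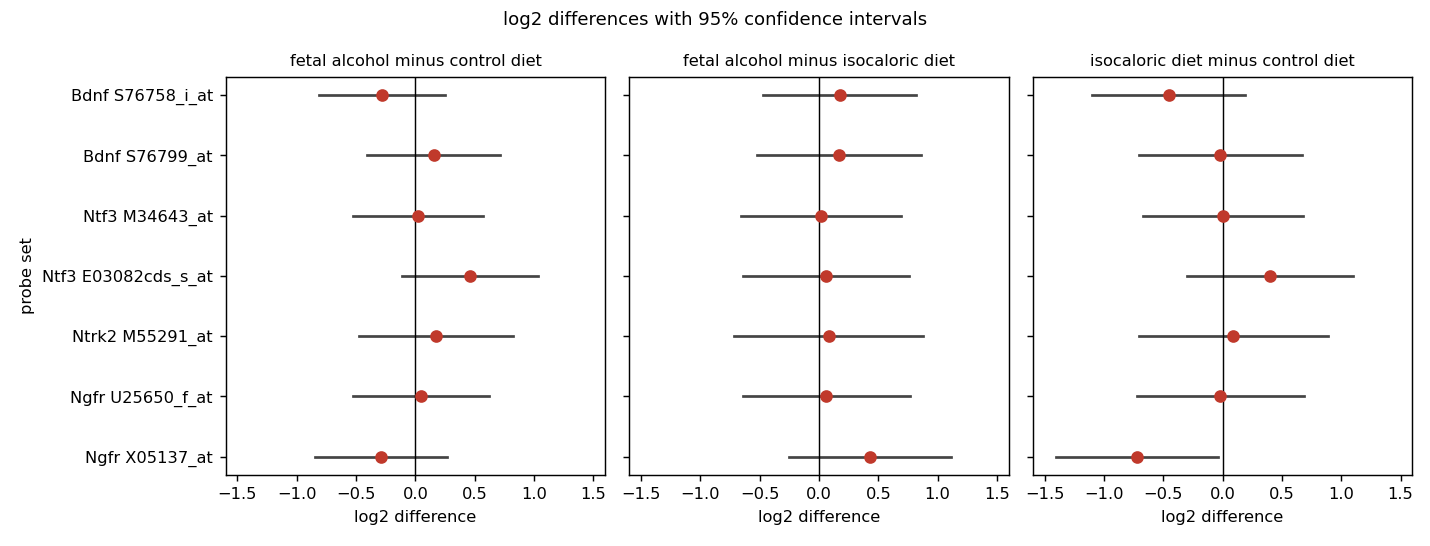
Log2 differences of the 7 tested probe sets in the 3 comparisons, with 95% confidence intervals from limma. In 20 of the 21 cases the interval holds 0; the exception is Ngfr X05137_at between isocaloric and control diet, whose adjusted p was 0.683.

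The isocaloric group is 1 array without a replicate, taken in the fit to vary as the 2 other groups do. All 7 log2 differences between fetal alcohol and isocaloric diet were above 0, from 0.02 to 0.43, with a median of 0.08 beside -0.0029 over all probe sets. None of the 7 passed (each limma adjusted p = 0.998), and over all probe sets 0% passed. None had an unadjusted p under 0.05 either, where 4.21% of all did, 2.67% higher and 1.54% lower. The largest belonged to Ngfr X05137_at, with 0.43 ± 0.30 (-0.25 to 1.11), and ran from 0.24 without fetal alcohol array 2 to 0.63 without fetal alcohol array 1. Bdnf S76758_i_at had 0.17 ± 0.28, from 0.067 without fetal alcohol array 1 to 0.28 without fetal alcohol array 2. None of the 7 reached a 1.5-fold difference, which 9.27% of all tested probe sets did, 5.13% higher and 4.14% lower. With 1 array left out, 5 of these 7 differences changed sign: both Ntf3 probe sets, Bdnf S76799_at, Ntrk2 M55291_at and Ngfr U25650_f_at. Without fetal alcohol array 1 the value was -0.021 for Bdnf S76799_at, -0.12 for Ntf3 E03082cds_s_at and -0.15 for Ngfr U25650_f_at. Without fetal alcohol array 2 it was -0.012 for Ntf3 M34643_at and -0.24 for Ntrk2 M55291_at.

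Between isocaloric and control diet, Ngfr X05137_at had the largest difference of the members, -0.72 ± 0.30 (-1.40 to -0.04), or 0.607 of the control diet level. It did not pass (limma unadjusted p = 0.0404, adjusted p = 0.683). An unadjusted p under 0.05 was reached by 6.81% of all tested probe sets, 1.37% higher and 5.43% lower, and an adjusted p under 0.05 by 0%. It was the only 1 of the 7 beyond 1.5-fold, beside 12.6% of all tested probe sets, 4.12% higher and 8.45% lower. The isocaloric array lay above both control diet arrays at 1 of the 7 and below both at 2, beside 38.3% above, 37.5% below and 75.8% either way over all probe sets. Bdnf S76758_i_at had -0.46 ± 0.28 (limma adjusted p = 0.853) and Ntf3 E03082cds_s_at 0.40 ± 0.31 (limma adjusted p = 0.854). The other 4 lay between -0.02 and 0.09. Of these, Bdnf S76799_at was 0.096 and Ngfr U25650_f_at -0.071 without control diet array 1, and Ntf3 M34643_at was -0.16, Ntrk2 M55291_at -0.063 and Ngfr U25650_f_at 0.035 without control diet array 2. This comparison and that of fetal alcohol with control diet share the 2 control diet arrays, so a low or high control value enters both. For the 3 probe sets whose groups did not overlap, fetal alcohol minus control diet and isocaloric minus control diet were -0.28 and -0.46 for Bdnf S76758_i_at, 0.46 and 0.40 for Ntf3 E03082cds_s_at, and -0.29 and -0.72 for Ngfr X05137_at.

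The 2 tested member probe sets with the widest range over the 5 arrays were compared with other genes by their pattern over the arrays. By the root mean square difference of centred log2 values over the 5 arrays, the probe sets most like Ntf3 E03082cds_s_at among 4377 were those of Tst, a sulfurtransferase of mitochondria (0.041), the serine protease inhibitor Serpina3c (0.050) and the ribosomal protein gene Rpl11 (0.053), beside a median of 0.340. For Ngfr X05137_at they were Kcna6, a voltage-gated potassium channel (0.034), the alpha-crystallin Cryaa (0.041) and Lyn, a Src family kinase (0.042), beside a median of 0.363. These likenesses describe 5 arrays and were not tested.

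Genes that work with the members were followed in 5 lists of 96 genes, of which 62 had a probe set with their symbol alone and 47 passed the intensity filter. None of the 47 passed in any of the 3 comparisons, in either direction. Between fetal alcohol and control diet 19 were above and 28 below 0, with a median log2 difference of -0.07, and 50.5% of all tested probe sets were above 0. An unadjusted p under 0.05 was found for 4 of the 47 (1 above and 3 below 0), beside 5.61% of all tested probe sets, 1.66% higher and 3.95% lower. In the list of other ligands, receptors and processing enzymes of neurotrophins, the 6 tested genes were Sort1, Furin, Pcsk2, Plat, Mmp2 and Cpe. No ligand was among them, and 5 of the 6 were below 0. Furin, the protease that cleaves neurotrophin precursors, measured 271 and 297 in fetal alcohol, 341 in isocaloric diet and 366 and 406 in control diet hippocampus, a log2 difference of -0.43 ± 0.23 (limma adjusted p = 0.918). Its fetal alcohol arrays lay below both control diet arrays, and a second Furin probe set gave -0.58 ± 0.23. Mmp2, a matrix metalloprotease, had -0.31 ± 0.31, which was 0.071 without fetal alcohol array 1, and its second probe set -1.04 ± 0.42. The further neurotrophin Ntf4 was dim at both of its probe sets, with no value above 8.18.

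In the list around GDNF, the 5 tested genes were Gfra1, Gfra2, Ret, Ncam1 and Sdc3. Of these, 2 were above and 3 below 0 between fetal alcohol and control diet. Sdc3, a syndecan that binds GDNF, measured 246 and 270 in fetal alcohol, 278 in isocaloric diet and 355 and 505 in control diet hippocampus. Both fetal alcohol arrays and the isocaloric array lay below the control diet arrays, with a log2 difference between fetal alcohol and control diet of -0.69 ± 0.26 (limma adjusted p = 0.788), which was -0.45 without control diet array 2. Ret had -0.24 ± 0.29 at its brightest probe set, which was 0.022 without fetal alcohol array 1 and 0.014 without control diet array 2. Gfra1, the GDNF coreceptor, had 0.21 ± 0.24 at one probe set, from 0.048 without fetal alcohol array 2 to 0.36 without fetal alcohol array 1, and -0.31 ± 0.31 at the other. In the list around CNTF, the 6 tested genes were Cntfr, Il6st, Il6r, Jak1, Jak2 and Stat3, with no cytokine among them. Of these, 2 were above and 4 below 0. Stat3, the transcription factor downstream of CNTF, measured 46.6 and 37.7 in fetal alcohol, 49.6 in isocaloric diet and 73.1 and 55.9 in control diet hippocampus, a log2 difference of -0.51 ± 0.25 (limma adjusted p = 0.911). A second Stat3 probe set, under the intensity filter, measured 34.4 and 36.2 in fetal alcohol, 19.2 in isocaloric diet and 32.8 and 26.3 in control diet. There both fetal alcohol arrays lay above both control diet arrays. Jak2 had 0.20 ± 0.37, which was -0.24 without control diet array 1 and -0.18 without fetal alcohol array 2. Cntfr, the CNTF receptor subunit, had -0.07 ± 0.27, which was 0.16 without control diet array 2 and 0.12 without fetal alcohol array 2.

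Downstream of the Trk receptors and p75, 8 of the 17 tested signalling genes were above and 9 below 0 between fetal alcohol and control diet, with a median of -0.00054. Nfkb1, a subunit of the factor NF-kappa-B that p75 can activate, measured 65.8 and 55.4 in fetal alcohol, 32.5 in isocaloric diet and 24.0 and 41.2 in control diet hippocampus. The fetal alcohol arrays were the 2 highest, at 0.75 ± 0.28 above control diet on the log2 scale (limma adjusted p = 0.788), or 0.46 without control diet array 1. The survival kinase gene Akt2 had -0.49 ± 0.22, with -0.70 at a second probe set. Akt1 had -0.40 ± 0.30 at its brightest probe set, which was 0.062 without fetal alcohol array 2, and -0.66 at a second one. The Trk adaptor Sh2b1 had 0.41 ± 0.27 at one probe set, from 0.13 without fetal alcohol array 1 to 0.70 without fetal alcohol array 2, and -0.21 ± 0.25 at another.

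Of 13 tested genes that respond to neurotrophins or to neuronal activity, 6 were above and 7 below 0 between fetal alcohol and control diet, with a median of -0.08. Between fetal alcohol and isocaloric diet 10 were above and 3 below 0, with a median of 0.21. Over all tested probe sets 49.7% were above 0 there, with a median of -0.0029. Between isocaloric and control diet 2 were above and 11 below 0, with a median of -0.18, beside 51.4% above 0 and a median of 0.016 over all. An unadjusted limma p under 0.05 was found for 2 of the 13 in each of these comparisons, beside 4.21% and 6.81% of all. All 13 share the single isocaloric array in both. Fos, an immediate early gene named here after its values were seen, measured 80.6 and 121 in fetal alcohol, 51.5 in isocaloric diet and 114 and 133 in control diet hippocampus. The isocaloric array was the lowest of the 5 for Fos, at -1.1 ± 0.32 from control diet (limma adjusted p = 0.555). Dusp1, a phosphatase that switches off MAP kinases, measured 63.3 and 41.0 in fetal alcohol, 117 in isocaloric diet and 113 and 125 in control diet hippocampus. Both fetal alcohol arrays lay below the 3 others, with a log2 difference from control diet of -1.07 ± 0.26 (limma adjusted p = 0.545), and 2 further Dusp1 probe sets gave -1.12 ± 0.33 and -0.12 ± 0.32. Bcl2, an inhibitor of apoptosis, measured 19.1 and 35.9 in fetal alcohol, 21.6 in isocaloric diet and 64.2 and 48.0 in control diet hippocampus, a log2 difference of -0.83 ± 0.30 with limma adjusted p = 0.776, which was -0.51 without fetal alcohol array 1. The isocaloric array thus stood with the fetal alcohol arrays for this Bcl2 probe set and with the control diet arrays for Dusp1. A dimmer Bcl2 probe set, under the intensity filter, measured 6.73 and 6.82 in fetal alcohol and 5.79 and 4.50 in control diet hippocampus, the opposite order. Another one under the filter overlapped, with 4.99 and 8.03 in fetal alcohol and 5.73 and 8.34 in control diet hippocampus. The secreted neuropeptide precursor Vgf had -0.45 ± 0.29, and -0.073 without fetal alcohol array 2. The immediate early gene Egr1 had 0.36 ± 0.29 at its brightest probe set, which was 0.0032 without fetal alcohol array 2, and -0.27, 0.16 and -0.18 at 3 others.

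**Figure D5:**
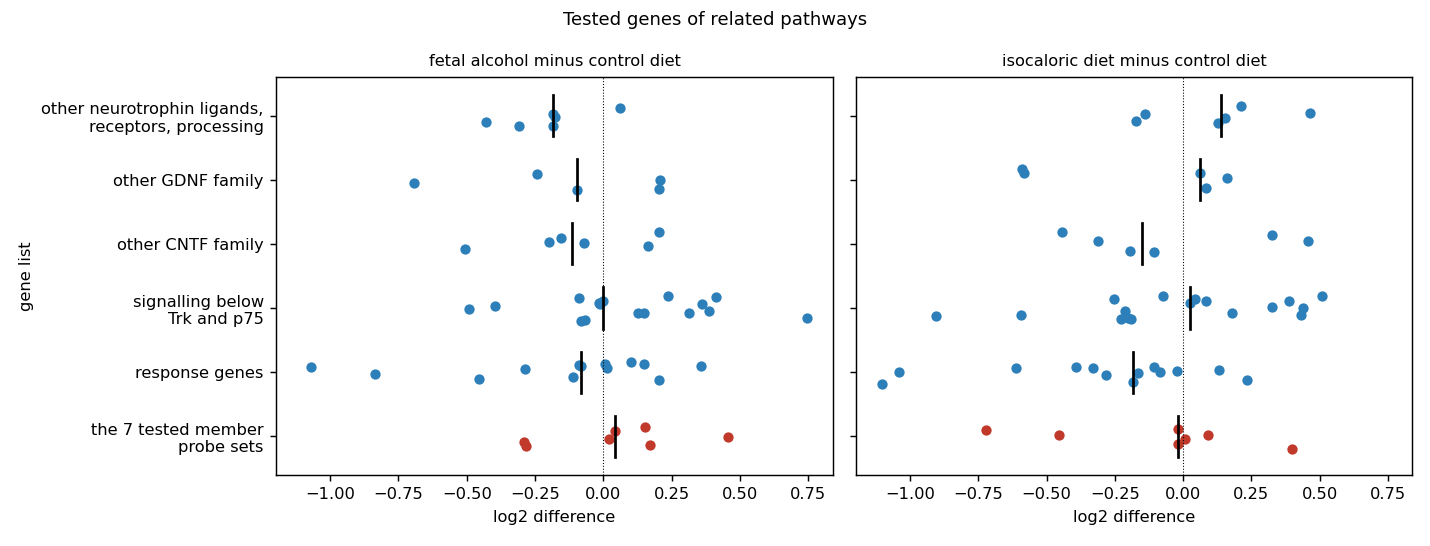
Log2 differences of the tested genes of the 5 related lists (blue) and of the 7 tested member probe sets (red), for fetal alcohol minus control diet and isocaloric minus control diet. Each point is a gene at its brightest probe set, or a member probe set, and black bars are medians; the lowest point for fetal alcohol minus control diet is Dusp1 with -1.07.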

How the data were processed

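Hippocampal total RNA of 5 rat samples was measured on single-colour arrays. The deposited table holds the intensity of each probe set. How the authors scaled it is not given in the sources used here, but the 2% trimmed means of the 5 columns differed by a factor of 1.000003, so no scaling was added. The 59 control probe sets were left out. The offset added before log2 is the 20th percentile of all values. Groups came from the sample titles, and genes from probe sets with exactly 1 symbol in the platform annotation, updated through the gene identifier. The test was limma 3.58.1 under R 4.3.3, 1 model for the 3 groups with an intensity trend, 2-sided, with 2 residual and 6.30 prior degrees of freedom; p-values were adjusted by Benjamini-Hochberg over 5244 probe sets at 0.05.

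Simulated data had independent normal noise at the fitted spread, with 200 of 5244 probe sets changed by a log2 value of 1. There the fit found 60.1% of these changes for fetal alcohol against control diet, with 11.7 false calls on average. For isocaloric against control diet it found 21.6%, with 5.6 false calls. The adjusted threshold depends on how many probe sets change, so these shares may not hold for the real arrays. All member probe sets are named whatever their values, and of each related list the 2 to 4 tested genes with the largest difference between fetal alcohol and control diet, besides Gfra1, Ret and Cntfr. The members and lists were chosen with earlier results of these data known. Precision is limited by the number of arrays. The replicate numbers are names: the deviations of same-numbered arrays correlated at -0.113, from 1 pair of differences. Alternatives were other scalings, offsets, filters and variance models, a replicate block, and leaving out arrays.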

Additional observations from a re-analysis of the deposited data

How the results depend on the processing

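No member probe set and no gene of the related lists passed the threshold for fetal alcohol minus control diet under 14 alternatives, or in the other 2 comparisons under 12 each, since those without the isocaloric array give them no value. For the 7 tested member probe sets, 245 of 266 alternative differences kept their sign, and 21 did not, 15 of them with 1 array left out. Under quantile normalization Ntf3 M34643_at became -0.0092 for fetal alcohol minus control diet and -0.011 for isocaloric minus control diet, and Bdnf S76799_at 0.0068 for the last. Under equal medians Bdnf S76799_at became 0.039 and Ngfr U25650_f_at 0.041 for isocaloric minus control diet, and Ntf3 M34643_at -0.00060 for fetal alcohol minus isocaloric diet. With 1 array left out, fetal alcohol minus control diet ran from -0.039 to 0.34 for Bdnf S76799_at, -0.15 to 0.19 for Ntf3 M34643_at, -0.15 to 0.49 for Ntrk2 and -0.17 to 0.26 for Ngfr U25650_f_at. Fetal alcohol minus isocaloric diet ran from -0.021 to 0.36, -0.012 to 0.046, -0.24 to 0.40 and -0.15 to 0.28 for the same probe sets, and from -0.12 to 0.24 for Ntf3 E03082cds_s_at. Isocaloric minus control diet ran from -0.13 to 0.096, -0.16 to 0.17, -0.063 to 0.24 and -0.071 to 0.035 for the first 4. Among related genes, fetal alcohol minus control diet ran from -0.69 to 0.071 for Mmp2, -0.51 to 0.022 for Ret, -0.24 to 0.65 for Jak2, -0.31 to 0.16 for Cntfr and -0.86 to 0.062 for Akt1. The cause of these changes was not tested.

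Over all probe sets, 0 passed for fetal alcohol against control diet, with 9 under equal medians and 8 with a replicate block and the isocaloric array left out together; leaving out that array alone gave 0. Quantile normalization, an offset of 50 and robust eBayes each gave 1, the same Igf2 probe set. For fetal alcohol against isocaloric diet 3 passed under quantile normalization and 3 under equal medians (Gsta1, Enpp2 and Sostdc1 in both), and 1 with an offset of 50 or robust eBayes (Gsta1). With 1 array left out the counts ran from 0 to 25, 0 to 12 and 0 to 13 in the 3 comparisons. They were 17, 10 and 11 without fetal alcohol array 1, 25, 12 and 13 without fetal alcohol array 2, and 0 without either control diet array. A fit without an array leaves 1 sample in its group, assumed to vary like the others. The related genes and the count of member probe sets without overlap (3 under quantile normalization, 2 under equal medians, where Bdnf S76758_i_at overlapped) were added after seeing the data.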
